A study of Mus musculus with 16 samples.

Results

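Fgf21, Gdf15 and Adm2 encode secreted hormones that rise under cell stress, Klb encodes the co-receptor for FGF21, and Fgfr1, Fgfr2, Fgfr3 and Fgfr4 encode the FGF receptor kinases. These 8 genes were selected with their values in LKO and CRE- livers already known, so those values are given as a description, with no test. They are 8 of the 41079 genes counted. All 8 are among the 16742 genes that passed a filter on low counts and were tested, and Adm2 passed through the LKO libraries alone.

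Liver RNA was sequenced from 16 C57BL/6J mice aged 20 to 22 months, with 4 mice in each of the groups male CRE-, male LKO, female CRE- and female LKO. LKO mice carried a floxed glucagon receptor gene, Gcgr, and Cre driven by the Albumin promoter, which is active in hepatocytes. CRE- controls carried the floxed allele without Cre, so both genotypes shared that allele. Between 33268424 and 56488920 reads on genes were counted per library, and levels are given as CPM, the reads of a gene scaled to a common library size by the TMM method. The question put to the data was how LKO livers differed from CRE- livers of the same sex. The male and female comparisons share no libraries, whereas the comparison of the controls of both sexes and the test of the sex difference in the LKO effect reuse the control libraries.

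Gcgr, at chr11:120420011-120429815 on GRCm39, was at 190.4, 192.9, 127.3 and 189.6 CPM in male CRE- replicates 1 to 4 and at 116.5, 135.9, 129.9 and 160.3 CPM in male LKO replicates 1 to 4. Female CRE- livers had 161.8, 208.1, 200.7 and 180 CPM of Gcgr and female LKO livers 48.8, 131.9, 118.6 and 93.6 CPM. Male CRE- replicate 3 lay within the range of the male LKO livers, and the other male controls and all 4 female controls lay above every LKO liver of their sex. Gcgr fell in females, its log2 ratio of LKO to CRE- being -0.93 (SE 0.25, adjusted p 0.0443 by edgeR quasi-likelihood with Benjamini-Hochberg), and in males the value was -0.37 (SE 0.24, adjusted p 0.671). With 1 female library left out at a time, edgeR with Benjamini-Hochberg gave an adjusted p of 0.0225 without LKO replicate 2 and up to 0.136, above 0.05, without each of the 4 CRE- libraries or LKO replicates 1, 3 or 4, and it was 0.129 without the libraries described next as standing apart. The count covers exons outside the deleted segment, so it checks the genotype only in part. The call held in 3 of 7 other settings, and the liver with the lowest Gcgr, female LKO replicate 1, also had the lowest hepatocyte marker sum, in a group where all 7 hepatocyte markers had a negative log2 fold change. The part of hepatocyte content in the Gcgr value was not tested.

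The tissue label was checked against markers. The 7 hepatocyte markers, of which Alb was the most abundant, summed to between 48510 and 129600 CPM in every library. They summed to 48510, 88850, 85470 and 67030 CPM in female LKO replicates 1 to 4 and to 110800, 108000, 113200 and 129600 CPM in female CRE- livers. All 7 had a negative log2 fold change in females, with a median of -0.69, and edgeR called 0 in either sex, with an unadjusted p under 0.05 for 2 in males and 3 in females, and 0 and 1 calls by DESeq2. In bulk tissue, fewer cells of a type and less RNA per cell cannot be told apart.

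Macrophage markers, 7 genes led by Cd5l, summed to 3681, 1075, 2193 and 1381 CPM in female LKO replicates 1 to 4 and to 808.1, 579.4, 641.5 and 1102 CPM in female CRE- livers. All 7 had a positive log2 fold change in females, and 1 of them, Adgre1, rose past the threshold of 0.05 on edgeR's Benjamini-Hochberg adjusted p. Neutrophil markers, 5 genes, summed to 89.3, 29.6, 52.2 and 517.5 CPM in female LKO livers and to at most 26.3 CPM in female CRE- livers, and Retnlg and Mpo rose. Proliferation markers, 4 genes, summed to 71.2, 12.8, 27.9 and 28.1 CPM in female LKO livers and to at most 15.8 CPM in female CRE- livers, and Top2a, Cdk1 and Ccnb1 rose. Of 6 endothelial markers Cdh5 rose in females. In females an unadjusted p was under 0.05 for 7 macrophage, 4 neutrophil, 4 proliferation and 3 endothelial markers, and DESeq2 called 5, 5, 4 and 2. Each of the 7 edgeR calls was lost without female LKO replicate 1 and without CRE- replicate 2 or 3, and some also without CRE- replicate 1 or 4 or LKO replicate 3 or 4, with an adjusted p of up to 0.189 by edgeR with Benjamini-Hochberg. In males edgeR called 0 genes of the 13 marker lists, with an unadjusted p under 0.05 for 16, and DESeq2 called 4, of which 3 are skeletal muscle markers and 1 is a neutrophil marker. The neutrophil list, led by S100a9, summed to 59, 13.5, 7.62 and 127.2 CPM in male CRE- livers and to 17.03, 10.1, 7.70 and 7.13 CPM in male LKO livers, with a negative log2 fold change for all 4 genes tested (median -2.23) and an unadjusted p under 0.05 for each. The erythroid list, 3 genes, summed to 448.9 to 854.2 CPM in male CRE- livers and to 163.3 to 403.4 CPM in male LKO livers. Its log2 fold change was negative for all 3 genes (median -1.08), with an unadjusted edgeR p under 0.05 for 2. The lowest erythroid sum was in male LKO replicate 1. The remaining 9 lists in females, among them those of lymphocytes (T, NK, B and plasma cells), cholangiocytes, erythroid cells, stellate cells and fibroblasts, acinar cells, adipocytes and skeletal muscle, gave 0 calls by edgeR, 7 genes with an unadjusted p under 0.05 and 2 calls by DESeq2. These marker genes were named after their values were seen.

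Some libraries stood apart from the rest of their group. On the first principal component of all tested genes, which held 23.9% of the variance, female LKO replicate 1 lay at 114.4 and female LKO replicate 4 at 75.4, against -57.5 to 42.5 for the other libraries. Male CRE- replicate 3 lay at 89.6 on the second component and -66.5 on the third. Adipocyte markers summed to 0.0515, 103, 9.62 and 82.4 CPM in male LKO replicates 1 to 4, of which Cfd alone made up 103 in replicate 2, where the other 3 markers were at 0, and 79.1 in replicate 4. Skeletal muscle markers summed there to 0.283, 0.146, 106.3 and 60.2 CPM. Acinar markers summed to 157.6 CPM in male CRE- replicate 2 and 617.3 CPM in female CRE- replicate 2, and to between 3.07 and 28.7 CPM in the other libraries. Values without male CRE- replicate 3 and female LKO replicates 1 and 4, a choice made after seeing the data, are given for Gcgr, the 8 genes, the calls of the gene lists and the correlations.

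FGF21 is an endocrine hormone made mainly by the liver that acts on cells with both β-klotho, the product of Klb, and an FGF receptor. GDF15 acts on the hindbrain through GFRAL and lowers food intake, and ADM2 is a peptide of the calcitonin family that binds CALCRL with a RAMP partner. Transcription of all of these hormone genes is known to rise in the integrated stress response, in which kinases of eIF2α raise translation of the transcription factor ATF4, and fasting raises hepatic Fgf21 through PPARα.

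Fgf21, at chr7:45263314-45264914 on the minus strand, was low in every control liver. It was at 1.298, 1.31, 1.46 and 2.50 CPM in male CRE- replicates 1 to 4 and at 113.3, 43.9, 43.3 and 43.7 CPM in male LKO replicates 1 to 4. All 4 male LKO livers stood far above all 4 male controls, and replicate 1 stood well above the other 3. Female CRE- livers had 1.89, 1.87, 2.39 and 1.44 CPM of Fgf21, and female LKO livers had 8.13, 24.3, 90.9 and 1.504 CPM. Female LKO replicates 1 to 3 lay above every female control, whereas replicate 4 lay within the range of the controls, so the female groups overlapped. The group means of Fgf21 were 1.64 ± 0.574 and 61.0 ± 34.8 CPM (SD, n = 4) in male CRE- and LKO livers, a ratio of 37.2, and 1.90 ± 0.389 and 31.2 ± 40.9 CPM (SD, n = 4) in female CRE- and LKO livers, a ratio of 16.4. The fitted log2 fold change was 5.21 (SE 0.87) in males and 4.04 (SE 0.83) in females. With 1 library left out at a time it was between 4.71 and 5.49 in males, and in females it was 2.57 without LKO replicate 3 and at most 4.46, without LKO replicate 4. Without the libraries that stood apart it was 5.15 in males and 4.95 in females.

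Both control livers with raised acinar markers had Fgf21 at 1.31 and 1.87 CPM, and male LKO replicate 1, the liver with the highest Fgf21, had 0.0515 CPM of Cfd. Skeletal muscle markers had a positive log2 fold change in males for all 4 genes, with the high sums in LKO replicates 3 and 4 and a sum of 0.283 CPM in LKO replicate 1. Female LKO replicate 4, with the lowest Fgf21 of the LKO livers, had the highest neutrophil marker sum. The part of other cells in the Fgf21 values was not tested.

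Gdf15, at chr8:71082043-71085106 on the minus strand, was at 5.42, 3.32, 4.58 and 5.42 CPM in male CRE- livers and at 25.2, 10.4, 14.4 and 10.3 CPM in male LKO livers. Every male LKO liver lay above every male control, with replicate 1 the highest. In females the controls were at 8.30, 14.3, 18.7 and 13.7 CPM of Gdf15 and the LKO livers at 15.3, 5.76, 18.9 and 10.3 CPM, and the groups overlapped, with LKO replicate 2 below every control and LKO replicate 3 just above every control. The ranges of Gdf15 in female controls and in male LKO livers overlapped in part, with female CRE- replicate 1 below every male LKO liver and male LKO replicate 1 above every female control. Means were 4.68 ± 0.991 and 15.1 ± 7.05 CPM (SD, n = 4) in male CRE- and LKO livers, a ratio of 3.22, and 13.7 ± 4.25 and 12.5 ± 5.74 CPM (SD, n = 4) in female CRE- and LKO livers, a ratio of 0.913. The fitted log2 fold change of Gdf15 was 1.69 (SE 0.37) in males, 1.301 without LKO replicate 1, and -0.13 (SE 0.36) in females, where it ran from -0.40 to 0.11 with 1 library left out. Leaving out the libraries that stood apart gave 1.66 and -0.12.

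Adm2, at chr15:89206923-89208934 on the plus strand, had 0 reads in all 4 male CRE- livers and 178, 76, 54 and 58 reads in male LKO replicates 1 to 4, or 4.58, 1.58, 1.34 and 1.57 CPM. Female CRE- livers had 2, 0, 0 and 0 reads of Adm2, and female LKO livers had 10, 24, 84 and 44 reads, or 0.252, 0.598, 1.54 and 1.27 CPM. Reads were found in every LKO liver, and among the controls in female replicate 1 alone, whose 2 reads count as 1 read pair. Adm2 was at 2.27 ± 1.55 CPM (SD, n = 4) in male LKO livers, at least 33.2-fold higher than a floor of 3 reads per control library. On read pairs, 183 against 0, the lower limit of the 95% counting interval of the ratio was 53. The female LKO mean was 0.915 ± 0.593 CPM (SD, n = 4), and the ratio to female controls was 84.1, with a 95% counting interval of 14.7 to 3360 from 81 and 1 read pairs. Ratios against counts this low do not rank the sexes. Without LKO replicate 1 the male LKO mean was 1.47 CPM, and with 1 LKO liver left out the female mean was between 0.705 and 1.14 CPM. Leaving out the libraries that stood apart gave 2.24 and 1.07 CPM.

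**Figure D1:**
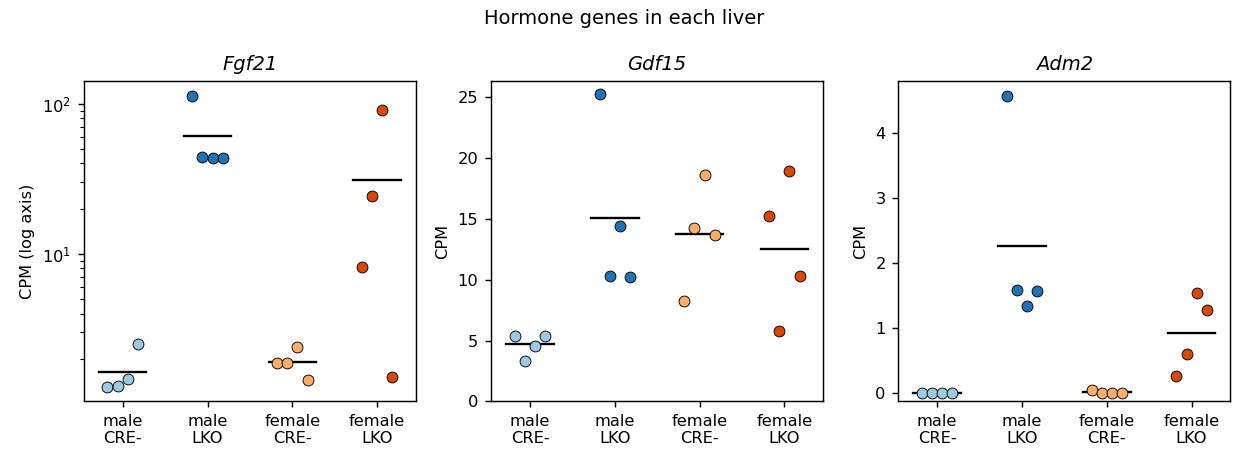
CPM of Fgf21 (log axis), Gdf15 and Adm2 in each of 16 livers, with 1 dot per mouse in the order of the replicates and a line at the mean of the group. Fgf21 and Adm2 are near the bottom of the axis in both control groups, Gdf15 is lowest in male controls, and female LKO replicate 4 has Fgf21 at 1.504 CPM.

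Of the 8 genes, 2 were past the threshold of edgeR's fit with a higher value in male LKO livers, Fgf21 and Adm2, and 0 with a lower one, where 0.221% and 0.233% of all tested genes were. The same 2 genes were past it with a higher value in female LKO livers and 0 with a lower one, against 2.09% and 2.15% of tested genes. Without male CRE- replicate 1, 2 or 3, or female CRE- replicate 2, 3 or 4, Fgf21 was not past it and the count for that sex was 1. Without female LKO replicate 1 the female count was 3, with Fgfr1. DESeq2 gave 3 in each sex, with Gdf15 in males and Fgfr1 in females, where it called 335 and 1795 genes in all. CPM did not overlap between genotypes for 3 of the 8 genes in males (Fgf21, Gdf15 and Adm2), against 6.49% of tested genes, and for 1 of the 8 in females (Adm2), against 11.6%. As the genes were selected on these comparisons, nothing is read from these counts.

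The control livers enter the comparisons on which the genes were selected, so the differences between female and male CRE- livers are also a description, with no test. CPM did not overlap between the sexes for 2 of the 8 genes, against 7.54% of tested genes. These were Gdf15, higher in all 4 female controls with a log2 difference of 1.55, and Fgfr1, lower in all 4 with -1.61. These values were 1.51 and -1.55 without the libraries that stood apart. Fgf21 differed between the control groups by 0.21 in log2. Past edgeR's threshold were 0 of the 8 genes and 0.92% of all tested genes. The unadjusted edgeR p was under 0.05 for 2 of the 8, against 2121 of the 16742 tested genes. DESeq2 called 2 of the 8, Gdf15 and Fgfr1, and 498 genes in all. In edgeR Gdf15 was past the threshold with no filter on low counts and with a block for the replicate number, and Fgfr1 without male CRE- replicate 2. Nothing is read from these counts.

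The difference between the female and the male LKO effect is built from the same selected comparisons and is likewise given with no test. In log2 it was -1.81 for Gdf15 and -1.18 for Fgf21, and without the libraries that stood apart -1.78 and -0.20. For Fgf21 it was -2.63 without female LKO replicate 3 and -0.65 without male LKO replicate 1. Over all tested genes edgeR called 0% for this difference, 2672 genes had an unadjusted p under 0.05, and DESeq2 called 369. Of the 7 of the 8 genes with a fitted difference edgeR called 0 and DESeq2 called Gdf15 and Fgfr1, and since the genes were selected on these comparisons nothing is read from either. Adm2 has 0 reads in the male controls, so a fitted difference would rest on the prior count and is not given.

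Klb, at chr5:65505754-65544300, was at 48.4, 45.6, 58.9 and 44.7 CPM in male CRE- livers and 54.5, 59.5, 38.5 and 43.9 CPM in male LKO livers. Female livers had 47.8, 57.0, 74.0 and 51.4 CPM of Klb with CRE- and 32.1, 65.5, 44.2 and 33.0 CPM with LKO. The groups overlapped in both sexes, and 3 of the 4 female LKO livers were below every female control. The log2 fold change of Klb was -0.01 (SE 0.22) in males and -0.40 (SE 0.23) in females, or 0.07 and -0.05 without the libraries that stood apart.

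Fgfr4, the main FGF receptor of hepatocytes and the one through which intestinal FGF15 limits bile acid synthesis, lies at chr13:55300631-55316572. It was at 51.0, 39.5, 40.0 and 44.2 CPM in male CRE- livers and 27.1, 36.1, 39.9 and 34.8 CPM in male LKO livers. Female CRE- livers had 58.3, 61.5, 49.5 and 52.2 CPM of Fgfr4 and female LKO livers 26.2, 50.3, 28 and 48.5 CPM. In males LKO replicate 3 lay within the range of the controls, in females LKO replicate 2 did, and the other LKO livers lay below every control of their sex. The log2 fold change of Fgfr4 was -0.34 (SE 0.21) in males and -0.53 (SE 0.21) in females, or -0.39 and -0.48 without the libraries that stood apart.

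Fgfr3, at chr5:33879068-33894412, was at 59.7, 34.8, 42.7 and 31.7 CPM in male CRE- livers and 34.5, 38.5, 28.6 and 40.4 CPM in male LKO livers. Its female values were 38.8, 40.8, 43.0 and 31.9 CPM with CRE- and 15.4, 40.8, 31.2 and 21.5 CPM with LKO. Male groups overlapped, and among females LKO replicates 1, 3 and 4 were below every control. The log2 fold change of Fgfr3 was -0.25 (SE 0.26) in males and -0.51 (SE 0.26) in females, or -0.26 and -0.08 without the libraries that stood apart. Among the female LKO livers, replicates 1 and 4 had the lowest Fgfr3, the lowest Klb and the lowest hepatocyte marker sums. Fgfr4 was lowest there in replicates 1 and 3. The part of hepatocyte content in the values of these genes was not tested.

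Fgfr2, at chr7:129764181-129868538, was at 40.6, 26.3, 53.4 and 27.1 CPM in male CRE- livers and 39.4, 29.9, 46.7 and 31.4 CPM in male LKO livers. Its female values were 33.7, 33.5, 39.4 and 29.5 CPM with CRE- and 35.2, 53.2, 37.1 and 20.8 CPM with LKO. Groups of both sexes overlapped, with group means of 36.8, 36.8, 34.0 and 36.6 CPM in male CRE-, male LKO, female CRE- and female LKO livers and log2 fold changes of 0.00 (SE 0.27) and 0.10 (SE 0.27). These were 0.22 and 0.43 without the libraries that stood apart.

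Fgfr1, the receptor through which FGF21 acts on adipose tissue, lies at chr8:26008808-26067819. It was at 13.8, 5.41, 11.9 and 10.5 CPM in male CRE- livers and 5.69, 3.75, 8.40 and 4.51 CPM in male LKO livers, so 1 control, replicate 2, lay within the LKO range. Female CRE- livers had 4.81, 3.43, 3.11 and 2.30 CPM of Fgfr1 and female LKO livers 3.73, 15.2, 7.74 and 9.72 CPM, where LKO replicate 1 alone lay within the control range. Every male LKO liver was below the mean of its controls and every female LKO liver above the mean of its own. Means were 10.4 ± 3.59 and 5.59 ± 2.04 CPM (SD, n = 4) in male CRE- and LKO livers and 3.41 ± 1.05 and 9.10 ± 4.79 CPM (SD, n = 4) in female CRE- and LKO livers. The log2 fold change of Fgfr1 was -0.90 (SE 0.39) in males and 1.41 (SE 0.39) in females. The difference between these was 2.31, past the threshold by DESeq2 but not by edgeR. Nothing is read from either, as both values belong to the comparisons on which the gene was selected. The log2 fold changes were -0.83 and 1.76 without the libraries that stood apart. Among the female LKO livers, replicate 1, with the lowest Fgfr1, had the highest macrophage marker sum. Cholangiocyte markers, 6 genes, summed to 67.4, 148.9, 100.9 and 90.9 CPM in female LKO replicates 1 to 4 and so were lowest and highest in the same livers as Fgfr1, and the adipocyte sum was also highest in replicate 2. The part of other cell types in these values was not tested.

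**Figure D2:**
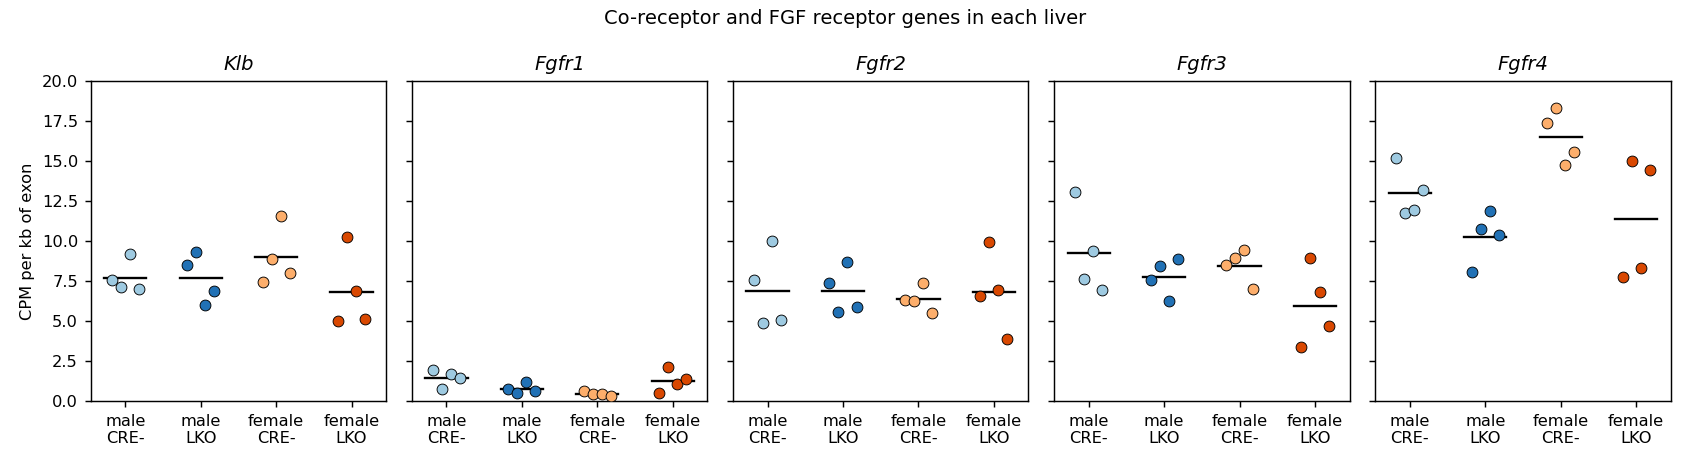
CPM per kb of exon of Klb and the 4 FGF receptor genes in each of 16 livers, with 1 dot per mouse and a line at the mean of the group. Fgfr4 has the highest mean of these genes in each group and Fgfr1 the lowest, and the dots of the genotypes overlap in every panel.

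Compared per length, as mean CPM per kb of exon, male CRE- livers ranked Fgfr4 at 13.02 ± 1.59 (SD, n = 4), Fgfr3 9.27 ± 2.75, Klb 7.73 ± 1.02, Fgfr2 6.89 ± 2.40, Gdf15 3.36 ± 0.711, Fgf21 1.73 ± 0.606, Fgfr1 1.47 ± 0.507 and Adm2 0. Neighbours from Fgfr3 to Fgfr2, and Fgf21 and Fgfr1, lay within their spread. In male LKO livers Fgf21 ranked highest at 64.4 ± 36.8 CPM per kb (SD, n = 4), ahead of Gdf15 at 10.8 ± 5.05 and Fgfr4 at 10.3 ± 1.59, which lay within their spread. Fgfr3 at 7.79 ± 1.15, Klb at 7.68 ± 1.51 and Fgfr2 at 6.89 ± 1.46 CPM per kb also lay within their spread there, above Adm2 at 1.75 ± 1.19 and Fgfr1 at 0.789 ± 0.288. The lowest of the 4 male LKO livers in Fgf21, at 45.7 CPM per kb, was above the highest value of each of the other 7 genes in that group.

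The order in female CRE- livers, again in CPM per kb, was Fgfr4 at 16.5 ± 1.63 (SD, n = 4), Gdf15 9.84 ± 3.04, Klb 9.004 ± 1.81, Fgfr3 8.48 ± 1.06, Fgfr2 6.37 ± 0.765, Fgf21 2.004 ± 0.411, Fgfr1 0.482 ± 0.148 and Adm2 0.00854. Gdf15, Klb and Fgfr3 lay within their spread. Female LKO livers had the highest mean for Fgf21 at 32.9 ± 43.2 CPM per kb (SD, n = 4), but its values ran from 1.59 to 95.9 and so spanned those of Fgfr4 at 11.4 ± 3.85, Gdf15 at 8.99 ± 4.12, Fgfr2 at 6.84 ± 2.48, Klb at 6.83 ± 2.43 and Fgfr3 at 5.97 ± 2.45. Fgfr1 at 1.29 ± 0.676 and Adm2 at 0.705 ± 0.457 CPM per kb were the lowest and lay within their spread.

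Targets of the integrated stress response, 28 genes of amino acid synthesis and transport, one-carbon metabolism and stress signalling, were the list with the most calls. The list was chosen with results of these livers known, so its counts are not independent evidence of its direction. In males 8 of the 28 rose and 0 fell by edgeR, against 0.221% and 0.233% of all tested genes, with 25 positive values and a median log2 ratio of 1.10. In females 7 rose and 0 fell, against 2.09% and 2.15%, with 23 positive values and a median of 1.16. Over all tested genes the median was -0.01 in males and 0.03 in females. The unadjusted edgeR p was under 0.05 for 20 and 17 of the 28, against 1595 and 3584 of the 16742 tested genes. DESeq2 called 15 and 13 of the 28, and 335 and 1795 genes in all. The male count was 3 without CRE- replicate 1, 2 or 3, 4 without LKO replicate 1, and 5 without LKO replicate 2 or 4. The female count was 2 without CRE- replicate 2, 3 or 4, 3 without LKO replicate 1, 4 without LKO replicate 3 and 10 without LKO replicate 2. Without the libraries that stood apart the counts were 9 and 5.

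Asns, asparagine synthetase, was at 0.528, 0.490, 0.468 and 0.854 CPM in male CRE- livers and 87.9, 44.0, 29.5 and 26.4 CPM in male LKO livers. Females had 1.91, 0.467, 0.287 and 0.214 CPM of Asns with CRE- and 20.7, 12.9, 24.8 and 7.58 CPM with LKO. Every LKO liver of either sex was above every control, and male LKO replicate 1, the highest for all 3 hormones in males, was also the highest for Asns. Female LKO replicate 4, whose Fgf21 was at the control level, had 7.58 CPM of Asns, above all controls. Asns rose in log2 by 6.32 (SE 0.68, adjusted p 0.000425 by edgeR quasi-likelihood with Benjamini-Hochberg) in males and 4.50 (SE 0.62, adjusted p 0.00274) in females.

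Phgdh and Psat1, enzymes of serine synthesis, rose in both sexes. Mean CPM of Phgdh went from 0.918 ± 0.39 to 18.4 ± 10.5 (SD, n = 4) in males and from 1.36 ± 0.496 to 6.05 ± 2.23 (SD, n = 4) in females, with log2 fold changes of 4.32 (adjusted p 0.000425 by edgeR with Benjamini-Hochberg) and 2.15 (adjusted p 0.0166). Psat1 had log2 fold changes of 5.07 (SE 0.63, adjusted p 0.00132 by edgeR with Benjamini-Hochberg) and 3.64 (SE 0.59, adjusted p 0.00646). Mthfd2, an enzyme of mitochondrial one-carbon metabolism, rose by 2.56 (SE 0.47, adjusted p 0.0259 by edgeR with Benjamini-Hochberg) in males and 2.12 (SE 0.47, adjusted p 0.0247) in females. Aldh1l2, of the same pathway, rose by 3.74 (adjusted p 0.0166 by edgeR with Benjamini-Hochberg) in males and had 2.14 (adjusted p 0.0624) in females, with a difference between the sexes of -1.60 (adjusted p 0.359). Sesn2, a stress-induced inhibitor of mTORC1 signalling, rose by 1.15 (adjusted p 0.0332 by edgeR with Benjamini-Hochberg) in females and had 0.91 (adjusted p 0.224) in males, with a difference between the sexes of 0.24 (adjusted p 0.779). Atf5, a transcription factor and the most abundant gene of the list in the mean over all 16 libraries, though below Gpt2 in male CRE- livers, rose by 1.05 (adjusted p 0.0317 by edgeR with Benjamini-Hochberg) in males, from 346.8 ± 73.0 to 720.1 ± 100.8 CPM (SD, n = 4). It was at 585.6 ± 70.2 and 522.8 ± 110.8 CPM (SD, n = 4) in female CRE- and LKO livers, and the difference between the sexes was -1.22 (adjusted p 0.14 by edgeR with Benjamini-Hochberg).

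With 1 library left out at a time, Asns and Psat1 passed in 8 of 8 fits in each sex, and Phgdh in 8 of 8 in males. In the other fits of edgeR with Benjamini-Hochberg the adjusted p of Phgdh in females reached 0.0695 and was above 0.05 without CRE- replicate 2, 3 or 4. For male Aldh1l2 and Mthfd2 the edgeR and Benjamini-Hochberg value reached 0.0724 and 0.0888 and was above 0.05 without any 1 of the CRE- libraries or LKO replicate 1. By the same edgeR test and Benjamini-Hochberg adjustment, the adjusted p of female Mthfd2 reached 0.0881, and the call was lost without CRE- replicate 2, 3 or 4 or LKO replicate 1, and without the libraries that stood apart (0.156). That of female Sesn2 reached 0.0955 and stayed under 0.05 only without LKO replicate 2 or 4. That of male Atf5 reached 0.117 and stayed under 0.05 only without CRE- replicate 4 or LKO replicate 1.

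The 21 regulators were the eIF2α kinases, Gcn1, Impact, Ppargc1a and transcription factors known to act on Fgf21, Gdf15 or Adm2. Of these 21 edgeR called 0 in either sex, with an unadjusted p under 0.05 for 3 in males and 2 in females, and DESeq2 called 0. Their median log2 ratio was 0.06 in males and 0.09 in females. Hnf4a, a hepatocyte transcription factor and the most abundant of them, was at 552.2 ± 117.5, 576.1 ± 53.1, 585 ± 34.4 and 518.8 ± 81.7 CPM (SD, n = 4) in male CRE-, male LKO, female CRE- and female LKO livers. Atf4 itself was at 91.2, 77.7, 44.3 and 98.8 CPM in male CRE- and 142.9, 120.3, 108.3 and 119.7 CPM in male LKO livers, and at 77.3, 95.8, 99.4 and 71.2 CPM in female CRE- and 53.4, 96.0, 127.3 and 112.9 CPM in female LKO livers. All 4 male LKO livers were above all male controls in Atf4, and the female groups overlapped.

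Targets of PPARα, 19 genes of fatty acid oxidation and lipid handling, gave 0 calls by edgeR in either sex, with an unadjusted p under 0.05 for 4 in males and 2 in females, and 0 calls by DESeq2. Their median log2 ratio was 0.35 in males, with 14 of 19 positive, and -0.31 in females, with 6 of 19 positive. Fabp1, the liver fatty acid binding protein and the most abundant of them, had means of 2909 and 3523 CPM in male CRE- and LKO livers and 3221 and 1740 CPM in female CRE- and LKO livers, or in log2 a difference of 0.28 (SE 0.51) in males and -0.89 (SE 0.51) in females.

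Of 21 other FGF ligand genes, 5 passed the filter, and edgeR called 0 in either sex, with an unadjusted p under 0.05 for 1 in each and 0 calls in males and 1 in females by DESeq2. Fgf1, the most abundant, had means of 81.0 and 65.4 CPM in male CRE- and LKO livers and 80.2 and 50.2 CPM in female CRE- and LKO livers. The DESeq2 call was Fgf23, a hormone of phosphate balance known from bone, which edgeR's filter removed and which is named after its values were seen. Fgf23 had 0 reads in all 4 female CRE- livers and 0, 0, 10 and 58 reads in female LKO replicates 1 to 4, a mean at least 6.72-fold above a floor of 3 reads per control library that rests on replicate 4. Male livers had at most 4 reads of Fgf23.

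Co-receptors, adaptors and kinases downstream of FGF receptors were 20 genes, of which 18 were tested and Kl and Lctl were not. EdgeR called 0 in either sex, with an unadjusted p under 0.05 for 3 in each, and DESeq2 called 0 in males and Cbl, a ubiquitin ligase, in females. Sdc1, a heparan sulfate proteoglycan and the most abundant of them, had means of 261.8 and 173.2 CPM in male CRE- and LKO livers and 398.4 and 281.2 CPM in female CRE- and LKO livers, or in log2 a difference of -0.60 (SE 0.22) in males and -0.50 (SE 0.22) in females.

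Feedback genes that FGF receptor and ERK signalling is known to raise were 13, and 1 of them, Dusp4, a phosphatase of MAP kinases, rose in females. Its mean went from 1.66 ± 0.345 to 4.29 ± 0.409 CPM (SD, n = 4), or in log2 a difference of 1.37 (SE 0.25, adjusted p 0.0113 by edgeR quasi-likelihood with Benjamini-Hochberg), and it passed in 8 of 8 fits with 1 library left out. In males 0 of the 13 passed by edgeR, 2 had an unadjusted p under 0.05 and DESeq2 called 2, Dusp4 and Egr1. Dusp4 was at 3.62 ± 0.993 and 6.71 ± 1.15 CPM (SD, n = 4) in male CRE- and LKO livers, with no overlap, a log2 difference of 0.89 (SE 0.24, adjusted p 0.143 by edgeR with Benjamini-Hochberg). The difference between the sexes was 0.48 (adjusted p 0.473 by edgeR with Benjamini-Hochberg). DESeq2 called 2 in females, Dusp4 and Etv5. Dusp6, the most abundant in the mean over all 16 libraries, though below Egr1 in female LKO livers, had means of 39.6 and 63.2 CPM in male CRE- and LKO livers and 56.2 and 53.6 CPM in female CRE- and LKO livers.

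Receptors, ligands and processing enzymes of GDF15 and ADM2 were 17 genes, of which 11 were tested; the GDF15 receptor genes Gfral and Ret, and Calca, Calcb, Iapp and Calcr, did not pass the filter. By edgeR 0 of the 11 passed in either sex, with an unadjusted p under 0.05 for 1 in each, and DESeq2 called 0. Furin, a protease that cleaves hormone precursors and the most abundant of them, had means of 302.6 and 277.7 CPM in male CRE- and LKO livers and 256.7 and 246.7 CPM in female CRE- and LKO livers.

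Other hormones secreted by the liver were 29 genes, of which 28 were tested and Epo was not. In males edgeR called 0, with an unadjusted p under 0.05 for 5, and DESeq2 called 1, Igfbp2. In females 2 rose, 1 fell, 12 had an unadjusted p under 0.05, and DESeq2 called 8. Inhbb, a subunit of activin B, rose from 2.94 ± 0.383 to 12.7 ± 5.90 CPM (SD, n = 4), or in log2 a difference of 2.11 (SE 0.40, adjusted p 0.0148 by edgeR with Benjamini-Hochberg). Igfbp1, which binds insulin-like growth factors, rose from 30.8 ± 7.12 to 253.1 ± 317.7 CPM (SD, n = 4), or in log2 a difference of 3.04 (SE 0.69, adjusted p 0.0266 by edgeR with Benjamini-Hochberg) and 1.62 without LKO replicate 4. Hamp2, a hepcidin paralogue, fell from 751.1 ± 401.3 to 31.8 ± 43.2 CPM (SD, n = 4), or in log2 a difference of -4.56 (SE 1.14, adjusted p 0.0368 by edgeR with Benjamini-Hochberg). The difference between the sexes was 1.40, 0.88 and -3.74 for these genes (adjusted p 0.253, 0.633 and 0.243 by edgeR with Benjamini-Hochberg). Leaving out CRE- replicate 1, 2, 3 or 4 made the female count 7, 0, 1 and 1, respectively. Inhbb lost its call without CRE- replicate 2 (adjusted p up to 0.0582 by edgeR with Benjamini-Hochberg), Igfbp1 without CRE- replicate 2, 3 or 4 or LKO replicate 4 (up to 0.0903), and Hamp2 without CRE- replicate 2, 3 or 4 or LKO replicate 1 or 3 (up to 0.0868). Without the libraries that stood apart the list had 1 call in males and 2 in females, and Inhbb and Igfbp1 lost theirs (adjusted p 0.0814 and 0.214 by edgeR with Benjamini-Hochberg). Ahsg, the most abundant of the list in the mean over all 16 libraries, had means of 4387 and 5329 CPM in male CRE- and LKO livers and 7505 and 7044 CPM in female CRE- and LKO livers, and in males Selenop was higher than Ahsg.

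The genes were selected on the difference between LKO and CRE- livers, with the values of the LKO livers known. Adm2 passed the filter through these LKO livers alone. Deviations from the mean of the sex within the 8 LKO livers leave that difference out. For these deviations 24 pairs of genes were compared by exact permutation (two-sided, 576 arrangements within sex). Adm2 was higher in the livers with more Atf4, with Pearson's r 0.911 (n = 8, permutation p 0.0017, the smallest these arrangements can give, adjusted p 0.0408 over the 24 pairs by Benjamini-Hochberg) and Spearman's rho 0.929 (permutation p 0.0017). Without the 2 livers farthest from the median of Atf4, r was 0.90, and r was 0.955 within the 4 males and 0.969 within the 4 females. With 1 liver left out r was between 0.882 and 0.969, but the smallest p that permutations of 7 livers can give is 0.0069, and the adjusted p was between 0.0552 and 0.1656, above 0.05 whichever of the 8 LKO livers was left out. Female LKO replicate 1, the lowest in both genes, also had the lowest hepatocyte marker sum, 48510 CPM, and without it r was 0.946. Adm2 had 54 to 178 reads in male LKO livers and 10 to 84 in female LKO livers. The part of hepatocyte content in this relation was not tested. With RLE scaling r was 0.912 and the adjusted permutation p 0.084. Without the libraries that stood apart r was 0.953 over 6 livers, with a permutation p of 0.0208, the smallest that 6 livers can give here, and an adjusted permutation p of 0.1664.

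**Figure D3:**
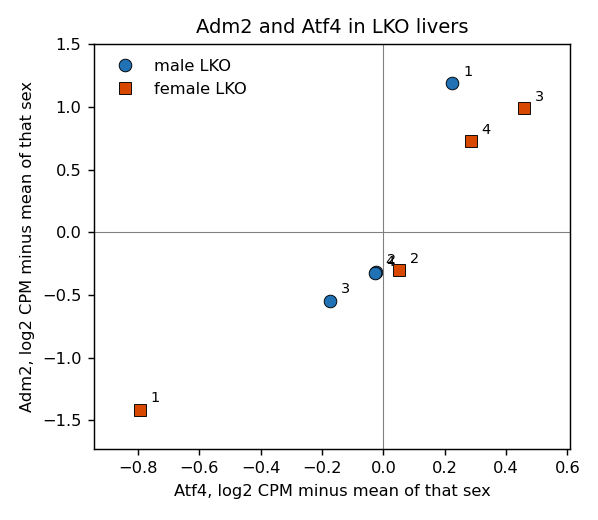
Log2 CPM of Adm2 against Atf4 in the 8 LKO livers, each as the difference from the mean of its sex, with circles for males, squares for females and the replicate number beside each point. Female LKO replicate 1 is lowest in both genes, and r is 0.911.

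For the 3 pairs of hormones no relation passed the test in the LKO livers. Fgf21 with Gdf15 had r 0.334 (n = 8, permutation p 0.5503) and rho 0.238 (permutation p 0.6267), and r was 0.004 without the 2 livers farthest from the median of Fgf21. Fgf21 with Adm2 had r 0.272 (permutation p 0.658) and rho 0.619 (permutation p 0.1389), with r 0.772 without the 2 farthest livers. Gdf15 with Adm2 had r 0.403 (permutation p 0.3628) and rho 0.333 (permutation p 0.474), with r 0.145 without the 2 farthest livers. The adjusted permutation p was 0.9323 for each of these 3 pairs. These r values rest on single livers. Fgf21 with Gdf15 had r -0.049 when female LKO replicate 3 was left out and 0.692 when replicate 2 was, and Gdf15 with Adm2 had r 0.094 without male LKO replicate 1 and 0.874 without female LKO replicate 1. For Fgf21 with Adm2, r was -0.136 when female LKO replicate 3 was left out and 0.971 when replicate 4 was, the latter with the smallest permutation p for 7 livers, 0.0069, and an adjusted permutation p of 0.0552. Without the libraries that stood apart the 6 livers left had r 0.966, 0.962 and 0.892 for Fgf21 with Gdf15, Fgf21 with Adm2 and Gdf15 with Adm2, with adjusted permutation p of 0.2501, 0.1664 and 0.2501. Within the 4 males r was 0.922, 0.993 and 0.869, and within the 4 females 0.239, 0.149 and 0.128. The male values rest on LKO replicate 1, the highest male for all 3 hormones. Its Fgf21 was at 113.3 CPM, against 43.3 to 43.9 CPM in the other male LKO livers. No difference between the sexes is read from these r values. Over the 23 pairs other than Adm2 with Atf4, r ran from -0.548 to 0.87 and the adjusted permutation p from 0.3648 to 0.9323, with 3 of the 24 pairs under 0.05 before adjustment.

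The genes most like each hormone over all 16 libraries, by Pearson's r of log2 CPM with 16741 other genes, are a description in which group differences enter. For Fgf21 they were Phgdh (r 0.916), Tceal9 (0.909), Cars1 (0.905), Aldh1l2 (0.903) and Chac1 (0.90). For Adm2 they were Asns (r 0.958), Phgdh (0.95), Psat1 (0.942), Gm29915 (0.916) and Bhlha15 (0.913). For Gdf15 they were Defb1 (r 0.758), Rtl8c (0.749), Id1 (0.743), Tmem165 (0.742) and Pcp4l1 (0.735).

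Promoter windows of 300 bases, 250 before and 50 after the transcription start, were read from a RefSeq table of build GRCm38.p6 and placed on GRCm39 by exact match of the sequence. The table holds 7 of the 8 genes, all but Fgfr1, with 9 windows. The C/EBP-ATF element core TGATGNAA, searched on both strands, was in 1 of these windows, that of Fgf21, and in 3.97% of all 32851 windows. The cAMP response element TGACGTCA (in 1.79% of all windows), the direct repeat of the PPAR element (0.0396%) and the ER stress element (0.119%) were in 0 of the 9. Of the 28 stress response targets 6 were looked at by name: Asns, Chac1 and Trib3 had the core, and Psat1, Phgdh and Ddit3 did not. The 250 bases before the start of Fgf21, at chr7:45264915-45265164 on the minus strand, and of Asns, at chr6:7693210-7693459 on the minus strand, are shown because both genes were higher in LKO livers and both windows hold the core. Capitals mark the match, which lies on the reverse strand of the Fgf21 window, starting 139 bases before the start, and on the forward strand of the Asns window, starting 23 bases before the start. A match is a description of the letters and not of a bound site.
Fgf21: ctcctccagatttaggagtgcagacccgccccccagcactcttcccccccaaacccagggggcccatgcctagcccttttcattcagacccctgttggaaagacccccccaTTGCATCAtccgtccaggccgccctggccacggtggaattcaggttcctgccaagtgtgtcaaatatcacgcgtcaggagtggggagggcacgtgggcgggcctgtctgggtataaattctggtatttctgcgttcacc
Asns: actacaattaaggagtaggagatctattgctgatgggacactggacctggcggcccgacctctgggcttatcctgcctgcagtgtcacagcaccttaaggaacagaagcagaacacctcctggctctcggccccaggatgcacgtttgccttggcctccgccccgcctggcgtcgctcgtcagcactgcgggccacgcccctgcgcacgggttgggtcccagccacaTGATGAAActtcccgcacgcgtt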

How the data were processed

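The deposited file gives, per gene and library, the count of reads that the authors obtained, without normalization, for 16 libraries. Per the submitters' processing notes, reads were aligned to GRCm39 with STAR 2.7.1a and counted with Subread 2.0.6 (featureCounts), using the strand. Of values of 1 to 20 reads 84.1% are even, against 50% if odd and even values were alike in number, so the 2 ends of a pair were mostly counted as 2 reads. Counting intervals here use read pairs, a floor is 3 reads per library, and both cover counting error only. Each library is a separate mouse.

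The 41079 genes were filtered by filterByExpr (minimum count 10), normalized by TMM and fitted in 1 model of 4 groups (edgeR 4.0.16, R 4.3.3). The quasi-likelihood test with Benjamini-Hochberg adjustment over the 16742 genes tested had a threshold of 0.05, and log2 CPM used a prior count of 2. Within-LKO correlations and promoter searches used Python 3.11.15. Steps over many genes were tested on simulated data.

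The 8 genes and the gene lists were chosen with earlier results of these data known. Named in each list are the genes past the threshold where 5 or fewer passed, otherwise the 5 with the smallest p per sex and direction, and the most abundant gene.

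Alternatives were DESeq2 1.42.0, RLE scaling, no filter, a stricter filter (at least 10 counts in every library), each sex fitted alone, a replicate block, a prior count of 0.5, no centring by sex, leaving out each mouse, and, chosen after seeing the data, leaving out the 3 libraries that stood apart. Promoter sequences are from RefSeq (table build GRCm38.p6).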

Additional observations from a re-analysis of the deposited data

Results flagged for a closer look

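In 35 groups of 4 libraries examined for a library far from the others, 5 had one. Chance gives about 1 in 20 groups, but these groups share libraries and hold the selected genes, so the number is not a test. Adm2 was at 0.0444 CPM in female CRE- replicate 1 and 0 in the other female controls, a value of 2 reads, where any read in a single library would stand out. Adm2 was also at 4.58 CPM in male LKO replicate 1, against 1.34 to 1.58 CPM in the other male LKO livers. For Fgf21, male CRE- replicate 4 was at 2.495 CPM, against 1.298 to 1.46 CPM in the other male controls. Male LKO replicate 1 had 113.3 CPM of Fgf21, where the other male LKO livers had 43.3 to 43.9 CPM. Gcgr was at 127.3 CPM in male CRE- replicate 3 and 189.6 to 192.9 CPM in the other male controls.

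Fgfr1 differed in direction between the sexes: every male LKO liver was below the mean of its controls and every female LKO liver above the mean of its own. The log2 difference of the LKO effects was 2.31, past the threshold by DESeq2 but not by edgeR. Nothing is read from either, as the gene was selected on these values.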

How the results depend on the processing

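The count of genes past the threshold moved with the test and with single libraries: DESeq2 gave 335 in males, 1795 in females, 498 between the control groups and 369 for the sex difference, where edgeR gave 76, 710, 154 and 0. No filter on low counts gave 12 for the sex difference, and at least 10 counts in every library, which tests fewer genes, gave 78 between the control groups; Adm2 and Asns have no value under that filter. A replicate block gave 1244 in females and put Gdf15 between the control groups past the threshold, and each sex fitted alone gave 119 in females and 107 in males. Leaving out the 3 libraries that stood apart gave 123 in males, 141 in females and 5 for the sex difference. With 1 library left out the counts were 26 to 49 in males, 87 to 1310 in females, 68 to 149 between the control groups and 0 to 14 for the sex difference. The correlation of Adm2 with Atf4 lost its side of the threshold with RLE scaling (r 0.912), without the libraries that stood apart (r 0.953) and with 1 liver left out (r 0.882 to 0.969), where 7 livers allow no smaller p than 0.0069 and 6 none smaller than 0.0208. For the counts the cause was not tested. Of the values for these comparisons 153 stayed within 1.5 times (counts), 1 SD (values given with no test) or their side of the threshold (correlations), 37 counts moved further, and 10 values, each of Adm2 with Atf4, lost their side of it. Values given with no test were judged by size alone, although edgeR's call of Fgf21 was lost without male CRE- replicate 1, 2 or 3, without female CRE- replicate 2, 3 or 4 and with females fitted alone, and Gdf15 in males was called with DESeq2, no filter and males fitted alone. Among values for single genes, lists and other pairs 843 stayed, 32 moved and 7 passed the threshold only under the alternative. A pairing of mice by replicate number was not established: the same-number correlation of residuals was 0.17, 0.17, 0.144 and -0.013 in males and 0.173, 0.105, 0.117 and 0.028 in females, 6 of 8 over 0.1, against -0.235 to 0.242 and 3 of 24 over 0.1 for different numbers, and 9 of 16 mice correlated best with their own number. Replicate numbers are those of the sample titles. For male CRE- replicate 4 and female LKO replicates 3 and 4 they differ from the numbers in the library names. A pairing by library number was therefore not tested, neither by these correlations nor by the replicate block. Genes with few reads, Adm2 above all, are limited by depth to bounds and intervals.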
